A study of Mus musculus with 12 samples.

Results

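Arginine is an amino acid for which several enzymes of a macrophage compete, and 10 genes of its breakdown, recycling and onward use were followed here: Nos2, Arg1, Arg2, Ass1, Asl, Slc7a2, Odc1, Srm, Sms and Sat1. They were taken by gene symbol, and each symbol matched 1 row in each of 3 comparison tables, so that all 10 members were found among 24351 genes listed in any table and 20884 listed in every table. The samples were bone marrow-derived macrophages of male C57BL/6 mice, 8 to 16 weeks old, profiled by RNA-seq of polyadenylated RNA. The protocol calls the macrophages WT and also mentions MyD88-/- and TRIF-/- mice, but no sample label carries those genotypes. Monophosphoryl lipid A (MPLA) is a detoxified bacterial lipid A that acts on Toll-like receptor 4, and the design sets early exposure, late exposure and a time after its end against no exposure. The groups were 3 libraries after 4 h of MPLA, 3 after 24 h of MPLA, 3 harvested 3 d after the end of MPLA priming, and 3 from untreated control macrophages. All 4 groups were grown for 7 days in 10% serum with macrophage colony stimulating factor (10 ng/mL), which stayed in the medium during the experiment. The labels give neither the length of priming for the 3 d group, nor the harvest time of the controls, nor whether a group's 3 libraries are separate mice or cultures. The p-values therefore rest on how far these libraries differ within a group, a spread that may be technical.

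Inducible nitric oxide synthase turns arginine into nitric oxide and citrulline, the antimicrobial route of classically activated mouse macrophages. Arginase instead splits arginine into urea and ornithine, and ornithine decarboxylase opens the path from ornithine to the polyamines putrescine, spermidine and spermine, which bind nucleic acids and are needed for translation and growth. Citrulline can be made back into arginine by argininosuccinate synthase and argininosuccinate lyase.

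No values per library, counts or expression levels were used, because each table holds 1 row per gene with the fold change (log2), raw and adjusted p of DESeq2 and of edgeR, and baySeq scores. Every change below is MPLA over control from the DESeq2 columns unless edgeR is named, and a gene was called when its DESeq2 adjusted p was under 0.05. The standard error (SE, 3 MPLA against 3 control libraries) was worked back from the deposited change and unadjusted p, and it is left out where that p was stored as 0. The headers do not name the direction of the change. It was taken from the order of groups in the named comparisons, control first, and under it Ptgs2, a gene that Toll-like receptor 4 induces, is higher with MPLA. Depth per library is unknown. If edgeR scaled by library totals alone, which the sources used here do not give, its offset from the unscaled change puts the MPLA totals at 0.859 of the control at 4 h, 0.934 at 24 h and 2.32 at 3 d in the authors' deposited tables. The median change of all tested genes in the authors' deposited tables was -0.04 at 4 h, -0.05 at 24 h and -0.02 at 3 d by DESeq2, and -0.97, -0.46 and -0.15 by edgeR. The DESeq2 change of a gene was typically higher than its edgeR change by 0.94, 0.41 and 0.13, so a small positive change at 4 h or 24 h can be negative with edgeR. This gap was not the same for all genes. At 3 d Nos2 was lower by DESeq2, at 5.72 against 6.22, as was the adenosine receptor gene Adora2a, at 5.82 against 6.92, for reasons not tested. Nos2 was instead higher by DESeq2 at 4 h, at 12.13 against 11.30, and at 24 h, at 10.39 against 10.15. The DESeq2 changes, ranks and SEs of a gene at different times may therefore not be on the same footing. The 3 tables share their controls, so values at different times stand side by side with no test of their difference.

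All 8 macrophage markers examined, among them Adgre1, Csf1r, Itgam and Lyz2, were listed with a tested change in each of the authors' deposited tables. Their levels are unknown, so the label could be checked only by their presence. Called changes of these markers in the authors' deposited tables were 6 higher and 1 lower at 4 h, 4 and 4 at 24 h, and 5 and 3 at 3 d. Of 25 markers in 6 lists for neutrophils, T cells, B cells, dendritic cells, stromal cells and mast cells or basophils, 18 were listed at 4 h, 16 at 24 h and 17 at 3 d, and Ly6g, Cd3g, Trac, Mcpt8 and Ms4a2 were in none of the tables. The numbers called higher and lower in the authors' deposited tables were 4 and 1 of 15 tested at 4 h, 3 and 3 of 9 at 24 h and 3 and 0 of 9 at 3 d. The markers called at 4 h in the authors' deposited table were Dcn and Pdgfra (stromal, both listed at 0 in the controls), Xcr1 and Zbtb46 (dendritic) as higher and Cd4 (T cell) as lower. At 24 h Dcn, Xcr1 and Camp (neutrophil) were called higher and Cd4, Zbtb46 and Cpa3 (mast cell) lower in the authors' deposited table, and at 3 d Dcn, Camp and Cd4 were called higher. What part such cells had in the results was not tested, and in bulk RNA fewer cells of a type cannot be told apart from less RNA per cell.

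At 4 h nitric oxide synthase, the arginine transporter, argininosuccinate synthase, ornithine decarboxylase and spermine synthase were higher than in the controls, and argininosuccinate lyase was lower. Of the 10 members, 6 were called higher (Nos2, Slc7a2, Ass1, Odc1, Sms and Sat1), 1 lower (Asl) and 3 neither (Arg1, Arg2 and Srm) in the authors' deposited table. Among all its tested genes 31.8% were called higher and 31% lower. By its edgeR columns 5 members were higher and 4 lower, where 13.5% of all listed genes were called higher and 50.1% lower. The directions given by both tools were 5 higher (Nos2, Slc7a2, Ass1, Odc1 and Sms) and 1 lower (Asl), while Sat1 was called in opposite directions.

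At 24 h 6 members were called higher (Nos2, Slc7a2, Ass1, Arg1, Odc1 and Srm) and 2 lower (Asl and Sat1) in the authors' deposited table, where 32.4% of tested genes were called higher and 32.2% lower. By edgeR it was 4 higher and 3 lower, against 16.2% and 41.8% of all genes. Nos2, Slc7a2, Ass1 and Arg1 were higher, and Asl and Sat1 lower, with both tools. At 3 d 5 members were called higher (Nos2, Ass1, Slc7a2, Odc1 and Srm) and 1 lower (Sat1) in the authors' deposited table, where 29.5% of tested genes were called higher and 25.8% lower. By edgeR 5 were higher and 2 lower, against 15.5% and 27.7% of all genes. Those 5 higher members and Sat1 had the same direction with both tools at 3 d, and the second lower member with edgeR was Sms.

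**Figure D1:**
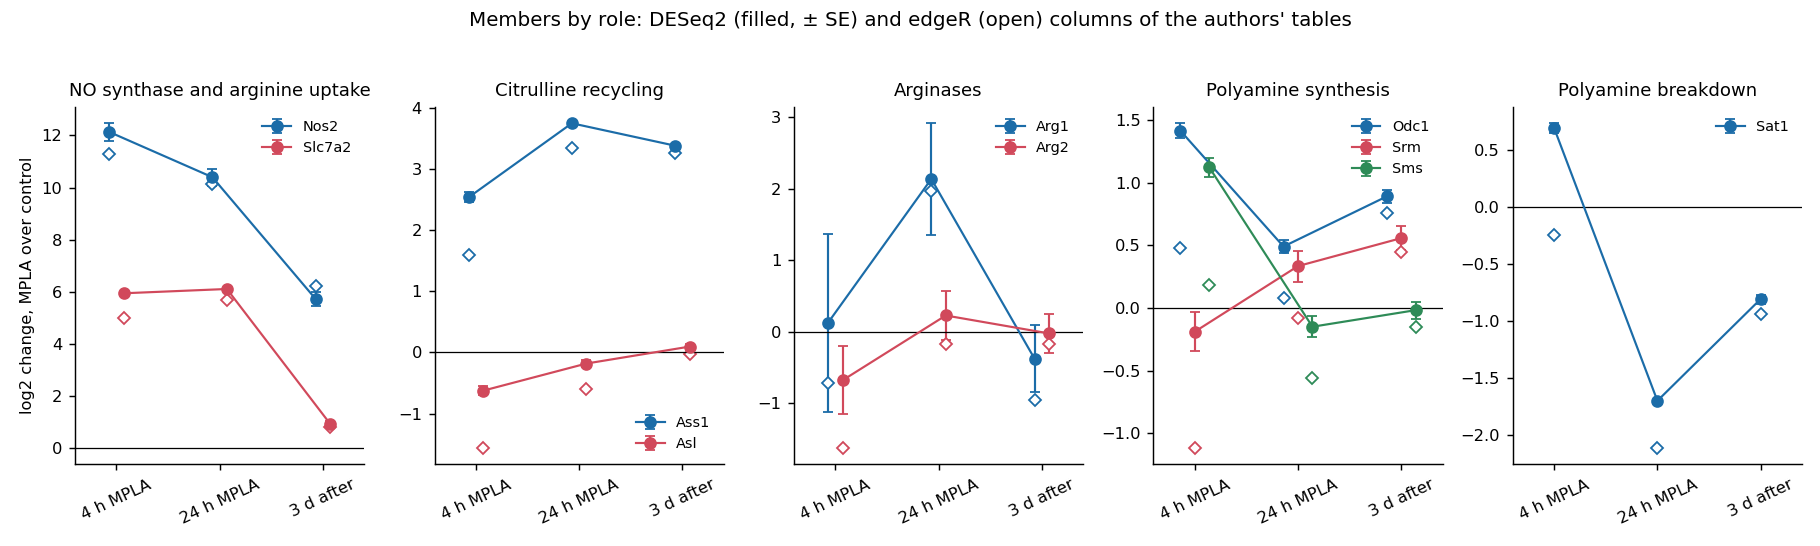
Log2 change (MPLA over control) of the 10 members at 4 h of MPLA, at 24 h and 3 d after priming, in panels by role with separate vertical axes. Filled circles are the DESeq2 columns with ± SE where one could be worked out, open diamonds the edgeR columns, and the line at 0 is no change; Nos2 lay at 5.72 or above at all times, Slc7a2 stood at 0.93 at 3 d, and Sat1 stood at 0.69 at 4 h and -1.70 at 24 h with DESeq2.

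The promoters of Ass1 and Odc1, called higher at 3 d, and of Sat1, called lower, are shown because these members were called at 3 d by both tools. RefSeq promoter entries (GRCm38.p6, 250 bases before to 50 after the start) matched 4 of the 10 members, and Sms, the other one, had 2 entries, which are not printed. Capitals mark the E-box CACGTG and the GC box GGGCGG, read on both strands, and an NF-kappaB match, of which these 3 promoters had none. Ass1 lies at chr2:31470020-31470319 on the plus strand, Odc1 at chr12:17544623-17544922 on the plus strand and Sat1 at chrX:155216400-155216699 on the minus strand, each written 5′ to 3′.
Ass1: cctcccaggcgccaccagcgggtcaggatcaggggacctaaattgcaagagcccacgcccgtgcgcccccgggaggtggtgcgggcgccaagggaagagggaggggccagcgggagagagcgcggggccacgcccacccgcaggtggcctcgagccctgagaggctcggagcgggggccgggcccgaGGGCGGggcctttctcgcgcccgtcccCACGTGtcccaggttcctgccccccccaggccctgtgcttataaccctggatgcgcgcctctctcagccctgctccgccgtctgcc
Odc1: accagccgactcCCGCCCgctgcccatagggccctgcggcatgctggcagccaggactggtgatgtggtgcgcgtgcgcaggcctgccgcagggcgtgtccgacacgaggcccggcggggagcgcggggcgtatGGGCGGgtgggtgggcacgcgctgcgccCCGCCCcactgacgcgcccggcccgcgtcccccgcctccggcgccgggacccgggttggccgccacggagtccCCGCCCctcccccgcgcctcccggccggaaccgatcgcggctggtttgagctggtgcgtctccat
Sat1: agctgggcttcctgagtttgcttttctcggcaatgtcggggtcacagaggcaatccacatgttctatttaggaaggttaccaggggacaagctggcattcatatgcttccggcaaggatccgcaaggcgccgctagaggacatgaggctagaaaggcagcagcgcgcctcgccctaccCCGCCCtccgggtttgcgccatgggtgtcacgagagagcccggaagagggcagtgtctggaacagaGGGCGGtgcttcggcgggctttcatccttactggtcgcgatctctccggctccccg

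Ass1 had 1 E-box, from -36 to -31 relative to the RefSeq start, and 1 GC box, Odc1 had 4 GC boxes and no E-box, and Sat1 had 2 GC boxes and no E-box. The gene positions given below are from GENCODE, whose starts of Ass1, at 31470207, and Odc1, at 17544794, lie inside these windows before the RefSeq starts. By the GENCODE start the E-box and GC box of Ass1 lie within the gene. Among all 32851 promoter entries 7.15% held an E-box, 35.7% a GC box and 11.2% an NF-kappaB match. No overlap between the marked motifs was found in these promoters. They also held no match on either strand to the interferon-stimulated response element, the STAT site TTCNNNGAA, the cAMP response element TGACGTCA, AP-1 TGANTCA or C/EBP TTGCNNAA. Such matches occurred in 3.44%, 8.30%, 1.79%, 7.81% and 10.8% of all entries, and a match or its absence describes the letters of the window only. These promoters were rich in G and C, at 74% in Ass1, 78% in Odc1 and 60.3% in Sat1, against a median of 52.7% over all entries.

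Nos2, which encodes inducible nitric oxide synthase (chromosome 11, 78920787 to 78960254, GRCm38), had the largest change of the members at every time. Its log2 change in the authors' deposited tables was 12.13 ± 0.33 (SE) at 4 h with a DESeq2 adjusted p of 4.31e-292, 10.39 ± 0.32 at 24 h and 5.72 ± 0.27 at 3 d with an adjusted p of 5.64e-98. The 3 d value corresponds to 52.6-fold higher by the DESeq2 and 74.7-fold by the edgeR column of the authors' deposited table, and the 4 h value to 4493-fold and 2529-fold. Nos2 ranked 4th of 17523 tested genes at 4 h, 3rd of 16442 at 24 h and 13th of 15111 at 3 d by the DESeq2 change in the authors' deposited tables, and 4th, 7th and 36th by the edgeR change. No 50-base window of its transcripts occurred in a transcript of another gene, and no exon of another gene overlapped it.

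Slc7a2 encodes the cationic amino acid transporter CAT2, which carries arginine into cells (chromosome 8, 40862396 to 40922308). It was 61.4-fold higher at 4 h and 68.8-fold higher at 24 h in the authors' deposited tables, with adjusted p-values stored as 0, and 1.90-fold higher at 3 d, with a log2 change of 0.93 ± 0.09 (SE) and a DESeq2 adjusted p of 3.19e-22. The edgeR values in the authors' deposited tables were 32.1-fold, 51.8-fold and 1.75-fold. At 4 h 98.7% of tested genes lay below Slc7a2 and 99.98% below Nos2 in the authors' deposited table, which put both near its top. At 3 d the change of Nos2 exceeded that of Slc7a2 by 4.79 log2 units in the authors' deposited table, and by 5.41 with edgeR. A difference between members of 1 table does not depend on the scaling constant, though the estimates of Nos2 by DESeq2 and edgeR still differ. Gm26584, a long noncoding RNA on the opposite strand, overlaps 6.95% of the exonic bases of Slc7a2, and the sources used here do not give whether reads were counted by strand.

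Ass1 encodes argininosuccinate synthase, the first enzyme of citrulline recycling, whose promoter holds the E-box shown (chromosome 2, 31470207 to 31520672). It was 5.80-fold higher at 4 h, with a log2 change of 2.54 ± 0.08 (SE) and a DESeq2 adjusted p of 6.90e-216, 13.4-fold higher at 24 h and 10.4-fold higher at 3 d in the authors' deposited tables. The edgeR folds in the authors' deposited tables were 3.03, 10.1 and 9.61. Ass1 had 91.1% of tested genes below it at 4 h, 97.5% at 24 h and 99.4% at 3 d, which put it 92nd of 15111 genes at 3 d by DESeq2 and 191st by edgeR in the authors' deposited table. Its windows were 38.6% shared with Gm5424, a processed pseudogene on chromosome 10, so reads of the shared stretches cannot be told apart. The row of Gm5424 stood at 2.99 ± 0.60 (SE) at 4 h, 4.03 ± 0.48 at 24 h and 3.29 ± 0.35 at 3 d (log2 changes) in the authors' deposited tables.

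Asl encodes argininosuccinate lyase, which completes the recycling (chromosome 5, 130011258 to 130029247). It fell to 64.8% of the control value at 4 h, a log2 change of -0.63 ± 0.07 (SE) with a DESeq2 adjusted p of 5.13e-17 in the authors' deposited table, and edgeR placed it at 33.8%. The change was -0.18 ± 0.06 at 24 h, with an adjusted p of 0.00308, and 0.10 ± 0.05 at 3 d, with an adjusted p of 0.0779, in the authors' deposited tables. The pair of recycling enzymes had unequal changes in each table. The log2 change of Ass1 exceeded that of Asl by 3.16, 3.93 and 3.29 at 4 h, 24 h and 3 d in the authors' deposited tables, or by 3.17, 3.93 and 3.30 with edgeR.

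The arginases had smaller changes than Nos2, with SEs from 0.27 to 1.25, and Arg1 was called at 24 h. Arg1, the cytosolic arginase that marks alternatively activated mouse macrophages (chromosome 10, 24915221 to 24927484), had a log2 change of 0.13 ± 1.25 (SE) at 4 h in the authors' deposited table, an interval of -2.32 to 2.57 at 95% confidence, and edgeR placed it at -0.72. At 24 h the authors' deposited table had Arg1 4.40-fold higher, a log2 change of 2.14 ± 0.78 with a DESeq2 adjusted p of 0.0105. With edgeR it was 3.90-fold higher, where the adjusted p was 0.00185. The 24 h interval was 0.61 to 3.67 at 95% confidence, and the DESeq2 call was lost at an adjusted p under 0.01. How many reads this call rests on was not examined. The unscaled log2 change of Arg1 was -1 at 4 h, 1.94 at 24 h and 0.22 at 3 d in the authors' deposited tables. A value of exactly -1 is what small whole numbers of reads can give, so the 24 h call may rest on few reads. At 3 d the change was -0.38 ± 0.46 in the authors' deposited table, with no adjusted p from DESeq2 and an edgeR adjusted p of 0.352. An interval this wide at 4 h holds both large increases and large decreases, and no change of Arg1 was detectable at that precision. Nos2 exceeded Arg1 in its change by 12.01 log2 units at 4 h and by 8.26 at 24 h in the authors' deposited tables.

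Arg2, the mitochondrial arginase (chromosome 12, 79130777 to 79156301), was not called by DESeq2 at any time. Its log2 changes in the authors' deposited tables were -0.68 ± 0.47 (SE) at 4 h, 0.23 ± 0.34 at 24 h and -0.02 ± 0.27 at 3 d. At 4 h the edgeR column of the authors' deposited table gave -1.63 with an adjusted p of 3.74e-07. Exons of genes on the opposite strand, Vti1b and Gm48780, cover 28.1% of the exonic bases of Arg2. The row of Vti1b was at 0.50, 0.48 and 0.22 at the 3 times in the authors' deposited tables.

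**Figure D2:**
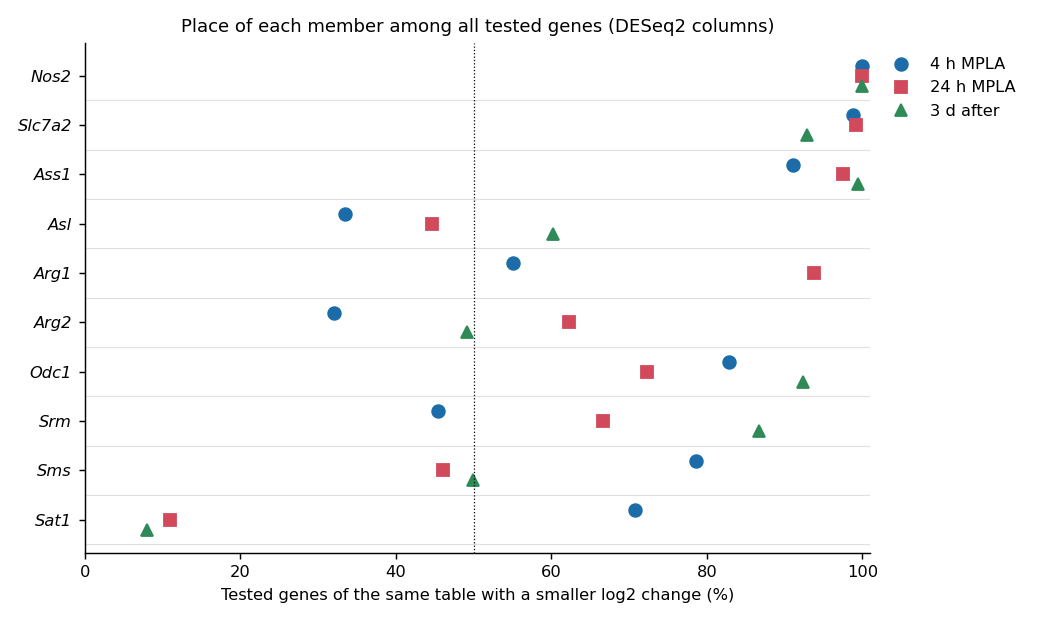
Share of tested genes of the same table whose log2 change (DESeq2 columns) was smaller than that of each member, by member, with circles for 4 h of MPLA, squares for 24 h and triangles for 3 d after priming. Nos2 and Ass1 stood high at 3 d with 99.9% and 99.4% of genes below them, Sat1 had 8.00% below it at 3 d, and Arg1 has no point at 3 d because it had no adjusted p.

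Odc1 encodes ornithine decarboxylase, the first and rate-limiting enzyme of polyamine synthesis, whose promoter holds 4 GC boxes (chromosome 12, 17544794 to 17551505). It was 2.67-fold higher at 4 h, a log2 change of 1.42 ± 0.06 (SE) with a DESeq2 adjusted p of 1.38e-129, 1.41-fold higher at 24 h and 1.85-fold higher at 3 d in the authors' deposited tables. The edgeR folds were 1.40, 1.06 and 1.70, and the 24 h value did not pass with edgeR, at an adjusted p of 0.0728, in the authors' deposited table. Processed pseudogenes of Odc1 share 24.3% of its windows, and none of those listed, Gm17709 and Gm9115, was called by DESeq2 at any time, while edgeR put Gm17709 at -2.97 at 4 h with an adjusted p of 0.000114 in the authors' deposited table.

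Srm and Sms, the spermidine and spermine synthases, did not move together with Odc1 at each time. Srm (chromosome 4, 148591503 to 148594993) had a log2 change of -0.19 ± 0.16 (SE) at 4 h, with an adjusted p of 0.299, in the authors' deposited table. At 24 h it was 0.33 ± 0.12 with an adjusted p of 0.0118, and at 3 d 0.56 ± 0.10, or 1.47-fold higher, with an adjusted p of 5.32e-08 in the authors' deposited tables. With edgeR Srm stood at -1.12 at 4 h, -0.08 at 24 h and 0.44 at 3 d in the authors' deposited tables, so its direction at 24 h depended on the scaling.

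Sms (chromosome X, 157443855 to 157492287) was 2.18-fold higher at 4 h, a log2 change of 1.12 ± 0.07 (SE) with an adjusted p of 1.98e-50, or 1.14-fold with edgeR, in the authors' deposited table. Its change was -0.15 ± 0.08 at 24 h and -0.02 ± 0.07 at 3 d, neither called by DESeq2, while edgeR called it lower at both times, at -0.56 and -0.15 in the authors' deposited tables. Sms shares 17.5% of its windows with processed pseudogenes, of which Gm6292 was listed without an adjusted p. Odc1 exceeded Sms in its change by 0.29 at 4 h, 0.64 at 24 h and 0.91 at 3 d, and exceeded Srm by 1.60, 0.16 and 0.33 (log2 units), in the authors' deposited tables.

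Sat1 encodes spermidine/spermine acetyltransferase, the first step of polyamine breakdown and export (chromosome X, 155213132 to 155216449). At 4 h it was 1.61-fold higher with DESeq2, a log2 change of 0.69 ± 0.04 (SE) with an adjusted p of 1.95e-58, and lower with edgeR, at -0.25 with an adjusted p of 1.84e-09, both in the authors' deposited table. At 24 h Sat1 fell to 30.8% of the control value with DESeq2 and 23.1% with edgeR, with adjusted p-values stored as 0 in the authors' deposited table. At 3 d it stood at 57.2% of the control value, a log2 change of -0.81 ± 0.04 with a DESeq2 adjusted p of 1.83e-91, and 52.2% by edgeR, in the authors' deposited table. Sat1 was the only member called lower by both tools at 24 h and at 3 d. The change of Odc1 exceeded that of Sat1 by 0.72 at 4 h, 2.19 at 24 h and 1.70 at 3 d in the authors' deposited tables, and by 0.73, 2.19 and 1.70 with edgeR.

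Genes around the members were read in 6 lists of 73 genes, of which 68 were listed in each table. Together 11 were called higher and 30 lower of 62 tested at 4 h, 21 and 31 of 63 at 24 h and 20 and 18 of 61 at 3 d in the authors' deposited tables. By edgeR the authors' deposited tables had 7 and 51, 16 and 40, and 20 and 28. DESeq2 called 31.8% of all tested genes higher and 31% lower at 4 h, 32.4% and 32.2% at 24 h and 29.5% and 25.8% at 3 d. Of all listed genes, tested by DESeq2 or not, edgeR called 13.5% and 50.1%, 16.2% and 41.8%, and 15.5% and 27.7%. The DESeq2 and edgeR shares thus have unlike bases, 17523 and 21893 genes at 4 h. The count of each list below reads against these shares and its median against the -0.04, -0.05 and -0.02 of all tested genes, and several list counts lie close to them. Of the list genes called by both tools, 3 had opposite directions at 4 h, 2 at 24 h and 0 at 3 d, and the lists are described by count and median.

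Among genes listed around nitric oxide synthesis, Gch1 rose at every time and Ddah2 fell at every time, with both tools. In the list of nitric oxide cofactor, limiters and targets, 1 rose and 6 fell of 11 tested at 4 h, 3 and 7 of 12 at 24 h and 3 and 3 of 11 at 3 d in the authors' deposited tables, or 1 and 8, 2 and 8, and 4 and 6 with edgeR. Gch1, GTP cyclohydrolase, which makes the tetrahydrobiopterin that nitric oxide synthase needs, was 24.5-fold higher at 4 h, 9.64-fold higher at 24 h and 2.61-fold higher at 3 d in the authors' deposited tables. Ddah2, of the dimethylarginine dimethylaminohydrolase family, had changes of -1.69 ± 0.28 (SE), -4.01 ± 0.39 and -0.79 ± 0.16 at the 3 times in the authors' deposited tables. Nosip, an interaction partner of endothelial nitric oxide synthase, was lower at 4 h, at -1.25 ± 0.09, and higher at 3 d, at 0.64 ± 0.05, in the authors' deposited tables. At 24 h Nosip stood at 0.30 by DESeq2 and at -0.11 by edgeR in the authors' deposited table. The median of the list was -0.46, -0.29 and 0.16 at the 3 times, beside -0.04, -0.05 and -0.02 for all tested genes.

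Slc7a1 and Slc7a7, other arginine transporters, rose at every time with both tools. Slc7a1, the widely expressed cationic transporter CAT1, had changes of 1.60 ± 0.09 (SE) at 4 h, 2.07 ± 0.08 at 24 h and 0.66 ± 0.08 at 3 d in the authors' deposited tables. The change of Slc7a2 exceeded that of Slc7a1 by 4.34, 4.03 and 0.26 in the authors' deposited tables. Slc7a7, which with the Slc3a2 heavy chain exchanges cationic for neutral amino acids, had changes of 2.27, 1.43 and 1.23 in the authors' deposited tables. Of the genes of arginine transport, recycling and use, 5 rose and 6 fell of 13 tested at 4 h, 7 and 4 of 13 at 24 h and 8 and 2 of 13 at 3 d, with list medians of -0.62, 0.29 and 0.41 in the authors' deposited tables. The edgeR counts were 3 and 10, 6 and 7, and 7 and 3. Padi2, a peptidylarginine deiminase that turns arginine in proteins into citrulline, was lowest of the list at 24 h, at -3.57 ± 0.14, and Padi4, its relative in granulocyte nuclei, was highest at 3 d, at 2.00 ± 0.24, against -1.60 ± 0.57 at 24 h in the authors' deposited tables.

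In the list of ornithine, proline and creatine genes, 0 rose and 8 fell of 13 tested at 4 h, 2 and 8 of 13 at 24 h and 2 and 6 of 12 at 3 d in the authors' deposited tables, with list medians of -0.72, -0.65 and -0.22. With edgeR 0 rose and 13 fell, 2 and 10, and 2 and 10. Oat, ornithine aminotransferase, which diverts ornithine away from polyamines, was at -0.05 ± 0.06 (SE) at 4 h, -0.54 ± 0.05 at 24 h and -0.19 ± 0.04 at 3 d in the authors' deposited tables. Gatm, the first enzyme of creatine synthesis, was lowest of the list at 3 d, at -1.52 ± 0.06, and the creatine transporter gene Slc6a8 highest, at 1.11 ± 0.03, in the authors' deposited table. Ckb, brain-type creatine kinase, was 4.67-fold lower at 24 h in the authors' deposited table.

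**Figure D3:**
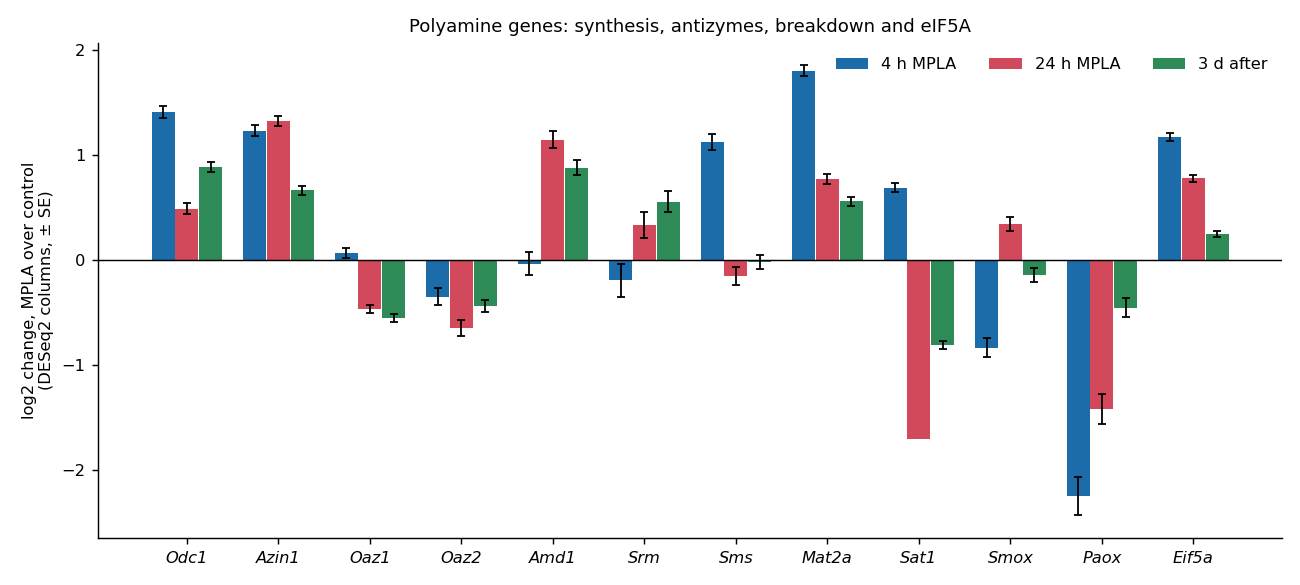
Log2 change (MPLA over control, DESeq2 columns, ± SE where one could be worked out) of polyamine genes at 4 h of MPLA, 24 h and 3 d after priming, with bars in that order for each gene. Odc1 and its helper Azin1 stood above 0 at all 3 times, the antizymes Oaz1 and Oaz2 below 0 at 24 h and 3 d, and Sat1 at -1.70 and -0.81 at those times.

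Azin1 rose at every time with both tools, and the antizymes Oaz1 and Oaz2 fell at 24 h and 3 d with both. Azin1, the antizyme inhibitor that shields ornithine decarboxylase from degradation, had changes of 1.23 ± 0.05 (SE) at 4 h, 1.33 ± 0.04 at 24 h and 0.67 ± 0.04 at 3 d in the authors' deposited tables. Oaz1, the antizyme that sends ornithine decarboxylase to the proteasome, was at 0.07 ± 0.05, -0.46 ± 0.04 and -0.55 ± 0.04 in the authors' deposited tables, and was called at 24 h and 3 d. With edgeR Azin1 stayed positive at each time, at 0.30, 0.91 and 0.54, and Oaz1 was at -0.87, -0.88 and -0.69 in the authors' deposited tables. Oaz1 shares 21% of its windows with its pseudogene and a microRNA gene. Amd1, S-adenosylmethionine decarboxylase, which supplies the aminopropyl groups of spermidine and spermine, was at -0.03 ± 0.11 at 4 h, 1.15 ± 0.08 at 24 h and 0.88 ± 0.07 at 3 d, and shares 78.1% of its windows with Amd2 and pseudogenes. Mat2a, which makes S-adenosylmethionine, was higher at 1.81 at 4 h, 0.78 at 24 h and 0.56 at 3 d in the authors' deposited tables. Of the 14 genes of polyamine synthesis, antizymes and salvage, all tested at each time, 3 rose and 4 fell at 4 h, 6 and 5 at 24 h and 5 and 3 at 3 d in the authors' deposited tables, with medians of -0.02, 0.01 and 0.11. The edgeR counts were 2 and 11, 4 and 8, and 5 and 4.

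Among 7 tested genes of polyamine breakdown and transport, 0 rose and 4 fell at 4 h, 1 and 5 at 24 h and 1 and 3 at 3 d in the authors' deposited tables, where the list medians were -0.83, -0.15 and -0.11, and edgeR gave 0 and 7, 0 and 5, and 1 and 4. Paox, the oxidase that acts on acetylated polyamines made by Sat1, was at -2.25 ± 0.18 (SE), -1.42 ± 0.14 and -0.45 ± 0.09 at the 3 times in the authors' deposited tables, with 28.5% of its windows shared with other genes. Smox, spermine oxidase, was at -0.83 ± 0.09 at 4 h, 0.35 ± 0.07 at 24 h and -0.14 ± 0.07 at 3 d in the authors' deposited tables, the last not called by DESeq2 and the 24 h value at -0.07 with edgeR. Atp13a2, a lysosomal polyamine exporter, was 4.74-fold lower at 4 h and at -0.07 ± 0.03 at 24 h in the authors' deposited tables. At 3 d Atp13a2 was called higher by both tools, at 0.36 with DESeq2 and 0.23 with edgeR. Of 4 genes of hypusine and eIF5A, a translation factor that carries a modified lysine made from spermidine, Eif5a rose at all 3 times, at 1.17 ± 0.04, 0.78 ± 0.03 and 0.25 ± 0.03, and 2 rose and 2 fell at 4 h, 2 and 2 at 24 h and 1 and 1 at 3 d, in the authors' deposited tables. The medians of these 4 genes were 0.29, 0.28 and 0.04, and the edgeR counts 1 and 2, 2 and 2, and 1 and 1.

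**Figure D4:**
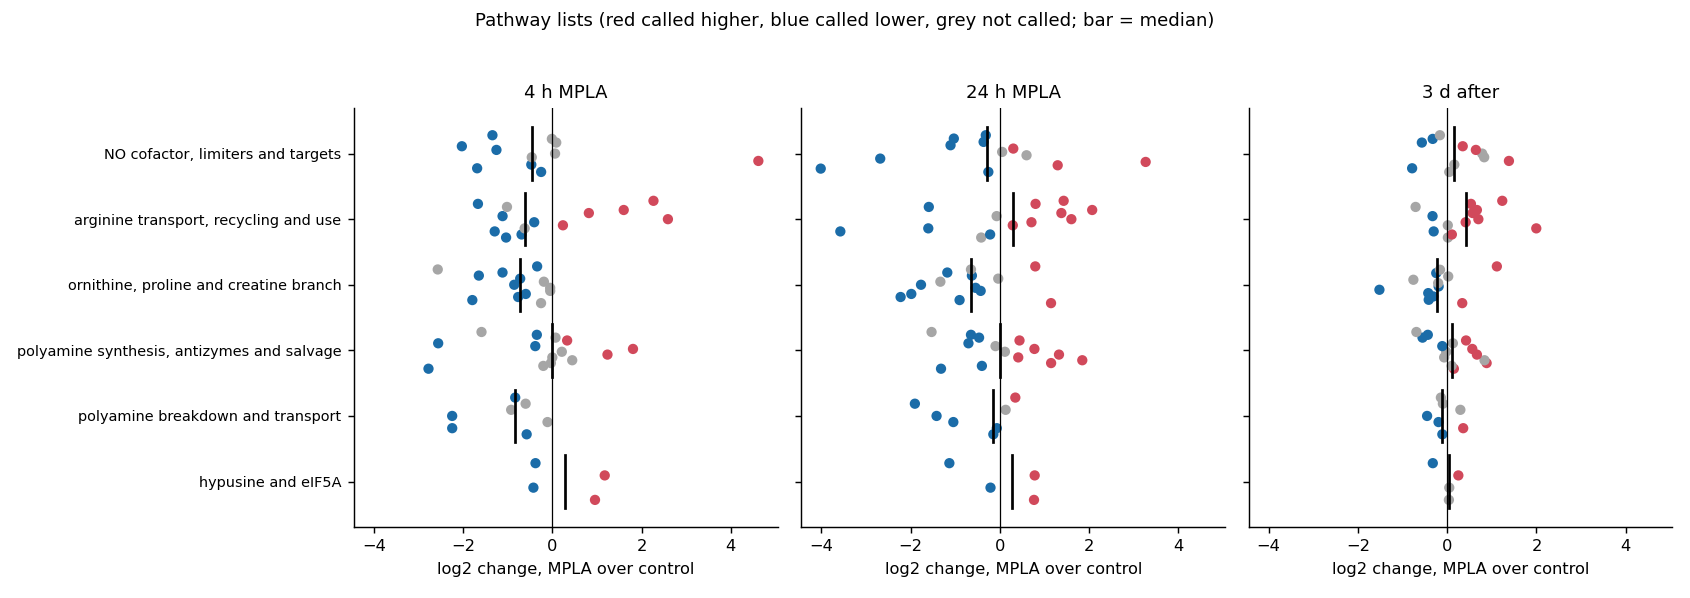
Log2 change (MPLA over control, DESeq2 columns) of each tested gene of 6 lists at 4 h of MPLA, 24 h and 3 d after priming, each point 1 gene, red called higher, blue called lower and grey not called, with a black bar at the list median. Gch1 is the far right point of the top list at 4 h, at 4.62, and the list of ornithine, proline and creatine genes has its median below 0 at each time.

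The genes whose 3 changes lay nearest to those of 4 members were found by Euclidean distance over the DESeq2 changes of 15038 genes with an adjusted p in every table. Nearest to Nos2 were Adora2a, an adenosine receptor gene, at a distance of 1.98 and Ptgs2, inducible cyclooxygenase, at 2.39 in the authors' deposited tables. Nearest to Slc7a2 were Hspa1b, a heat shock protein gene, at 0.906, and Gm2065, at 0.963, where Hspa1b shares 62.3% of its windows with other genes. Odc1 was closest to Gm5913, a processed pseudogene, at 0.137, and Tmed8, at 0.161. DESeq2 called Gm5913 at no time, with adjusted p-values of 0.260, 0.643 and 0.125, and Gm5913 shares 34.8% of its windows with other genes. Arg2 was closest to Fem1b, at 0.0107, and Fam178a, at 0.0937, in the authors' deposited tables. These are the measured distances and show nothing of shared function. Arg1 had no adjusted p at 3 d and was left out.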

How the data were processed

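RNA-seq was made from 12 libraries, 3 per group, with a stranded polyA kit per the labels' protocols. TopHat2, HTSeq, bcl2fastq and DESeq are listed beside DESeq2 and edgeR in the submitters' processing notes, with the build mm10 and with no versions or roles. Neither counting settings nor strand use nor annotation are given in the sources used here. Per the file headers, the deposited tables give log2 fold changes from DESeq2 and edgeR and an unscaled one, p-values and adjusted p-values, baySeq likelihoods, and rank scores, from the authors. Those 3 tables hold no counts or values per library, so no model was refitted and the calls are the authors' own. An NA adjusted p was left as not tested. Signs were turned to MPLA over control, SEs were taken as the change divided by the normal quantile of its p, and intervals used 1.96 SE. Whether the deposited DESeq2 p-values follow the normal quantile that these SEs and intervals assume was not tested.

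The members and the gene lists were chosen with earlier results of these data known. The genes named from each list and time are among the 2 highest and 2 lowest called changes, genes called in opposite directions by the authors' DESeq2 and edgeR columns, 8 partner genes (Gch1, Amd1, Oaz1, Azin1, Smox, Slc7a1, Oat and Ddah2) and the 2 genes nearest to each of 4 members (Arg1 had none). Nos1, Nos3, the called cell type markers and genes sharing sequence with members were chosen after their values were seen. Gene positions and shared 50-base windows came from GENCODE M21 transcripts on GRCm38, the assembly also called mm10, and promoters from RefSeq. Python 3.11.15, numpy 2.4.6, scipy 1.17.1, pandas 2.3.3 and matplotlib 3.10.9 were used. Other scalings, thresholds and tools were compared.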

Additional observations from a re-analysis of the deposited data

How the results depend on the processing

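Over 6 alternative settings and 30 member values, 159 of 180 kept their call or stayed uncalled and 6 gained a call. Another 13 lost their call with the sign kept, and 2 called values took the other sign, whether still called or not. Adjusting all deposited p-values changed none of the 30 calls. Recentring kept the adjusted p-values and took off medians of -0.04, -0.05 and -0.02, while the smallest called change was -0.18 (Asl at 24 h). It could therefore change no call. The stricter threshold and the 2-fold minimum could only remove calls, and the baySeq setting took its direction from DESeq2. With the authors' edgeR columns the called values that took the other sign were Sat1 at 4 h, called lower at -0.25, and Srm at 24 h, at -0.078. Srm was not called by edgeR there, at an adjusted p of 0.412, so it also lost its call. The uncalled ones with the other sign were Arg1 at 4 h, at -0.72, Arg2 at 24 h, at -0.18, and Asl at 3 d, at -0.033. Of called values, the unscaled log2 ratio reversed Sms at 4 h to -0.031, Sat1 at 4 h to -0.46, Odc1 at 24 h to -0.018, Srm at 24 h to -0.18 and Sat1 at 3 d to 0.25, and of those not called it changed the sign of Arg1 at 4 h and 3 d, Arg2 at 24 h and 3 d and Sms at 3 d. The unscaled ratio is not corrected for library totals, put above at 2.32 of the control at 3 d if edgeR scaled by totals alone. Its signs therefore mix the change of a gene with any difference in depth. The number of members lower at 4 h was 1 with DESeq2, 4 with edgeR, 2 with baySeq and 0 where a 2-fold change was required. Requiring a 2-fold change also left 1 lower at 24 h, and 2 higher and 0 lower at 3 d, and edgeR gave 2 lower at 3 d. Among the pathway list genes, edgeR gave 7 higher and 51 lower at 4 h, against 11 and 30 with DESeq2, and 28 lower at 3 d, against 18. Requiring a 2-fold change left 7 higher and 15 lower list genes at 4 h, 10 and 16 at 24 h, against 21 and 31, and 4 and 1 at 3 d, against 20 and 18, and baySeq left 1 lower at 3 d. The cause of these differences beyond the scaling was not tested. No paired analysis was possible because the deposited tables hold no values per library, and leaving out each replicate was not run for the same reason. Depth is unknown, and the wide SEs of Arg1 and Arg2 limit what their missing calls, and the 24 h call of Arg1, can show.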

Other observations

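Nos1, the neuronal nitric oxide synthase gene, was not called by DESeq2, with log2 changes of 0.06 ± 1.30 (SE) at 4 h, 0.60 ± 1.00 at 24 h and 0.83 ± 0.48 at 3 d in the authors' deposited tables, and edgeR called it higher at 3 d, at 1.34 with an adjusted p of 0.0440. Nos3, the endothelial one, was not called by DESeq2 at 24 h or 3 d and had no adjusted p at 4 h. Nostrin, which binds endothelial nitric oxide synthase, was at -2.03 ± 0.13, -1.10 ± 0.09 and 0.35 ± 0.06, each called. Of the enzymes that salvage methionine from the by-product of spermidine synthesis, Adi1 was at -2.78 ± 0.12 at 4 h, -1.32 ± 0.08 at 24 h and 0.15 ± 0.05 at 3 d, and Mri1 at -2.56 ± 0.30, -0.70 ± 0.17 and 0.13 ± 0.13, the last not called, in the authors' deposited tables. Mtap, another salvage gene, was called higher by DESeq2 at each time, at 0.33, 0.44 and 0.42. With edgeR Mtap was called lower at 4 h, at -0.61, so the salvage genes did not move as 1 set. Rars, arginyl-tRNA synthetase, rose at all 3 times, at 2.59, 1.60 ± 0.05 and 0.70 ± 0.05. Gm26584, the noncoding RNA opposite the start of Slc7a2, was at 2.63 ± 1.37 at 4 h, not called, and at 2.88 ± 1.07 at 24 h, with a DESeq2 adjusted p of 0.0121.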
